A study of Mus musculus with 18 samples.

Results

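The genes described here were those of the ionotropic and metabotropic glutamate receptors and of the gamma subunits that include the TARPs, the transmembrane auxiliary subunits of AMPA receptors. They were taken by symbol, as every gene whose name starts with *Gria*, *Grid*, *Grik* or *Grin* and a digit, or is *Grm* or *Cacng* with a single digit from 1 to 8. The rule found 36 of the 54752 genes in the RNA data, and 35 of the 22523 genes in the footprint data, where *Grin1os* was not listed. Of these, 34 encode subunits: 4 AMPA, 2 delta, 5 kainate and 7 NMDA receptor genes, 2, 2 and 4 metabotropic genes of groups I, II and III, 4 type I TARPs, 2 type II TARPs and the other gamma subunits *Cacng1* and *Cacng6*. The remaining 2, of which *Grin1os* is 1, are not subunits and were counted apart where stated.

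AMPA receptors carry fast excitatory transmission, and TARPs set their trafficking and gating. NMDA and kainate receptors are further glutamate-gated channels, and the metabotropic receptors signal through G proteins. GTPBP1 and GTPBP2 are GTPases that act on stalled ribosomes, and the study asked what their loss does to translation and RNA levels where a tRNA that reads the arginine codon AGA is scarce.

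RNA sequencing and ribosome profiling were done on the cerebellum of 3-week-old mice of both sexes, with 3 libraries per genotype and assay, 18 in all. The genotypes were C57BL/6J (B6J), *Gtpbp1*-/- (part of exon 3 and all of exon 4 replaced by a PGK-Neo cassette, backcrossed to B6J) and *Gtpbp2*-/- (nmf205, an ENU-induced point mutation), all on a B6J background that carries the hypomorphic n-Tr20 mutation of the tRNA-Arg-UCU. RNA libraries held 37794598 to 52114400 estimated counts and footprint libraries 3630823 to 10442573 counts, and the labels gave batch 1 to all RNA and batch 2 to all footprint libraries, so assay and batch cannot be told apart. By the Y-linked gene *Ddx3y*, the males were B6J RNA library 2, *Gtpbp1*-/- RNA libraries 1 and 2, B6J footprint libraries 1 and 2 and *Gtpbp1*-/- footprint library 1, and all *Gtpbp2*-/- libraries came from females.

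The genotype labels were checked on the targeted genes. Levels are CPM after TMM scaling (scaled CPM), which compare libraries and not genes, and the number of libraries on the side of a change is counted against the mean of the other genotype. *Gtpbp1* RNA was 71.0, 77.8 and 66.7 in B6J, 44.0, 41.7 and 43.9 in *Gtpbp1*-/- and 58.7, 72.2 and 65.7 in *Gtpbp2*-/- libraries, and its footprints 73.6, 117 and 84.9, 32.0, 25.5 and 35.6 and 79.4, 66.8 and 62.1. All 3 *Gtpbp1*-/- libraries lay below all others in both assays, with log2 fold change -0.73 ± 0.08 (SE) for RNA (edgeR quasi-likelihood, Benjamini-Hochberg adjusted p = 5.94e-05) and log2 fold change -1.57 ± 0.23 (SE) for footprints (adjusted p = 0.00676). *Gtpbp2* RNA was 85.9, 74.0 and 88.1 in B6J, 109, 100.5 and 104 in *Gtpbp1*-/- and 65.5, 75.4 and 72.7 in *Gtpbp2*-/- libraries, and its footprints 44.8, 36.1 and 38.5, 36.2, 43.3 and 58.3 and 28.9, 26.4 and 7.54. Its footprints were below every B6J library in all 3 *Gtpbp2*-/- libraries, and its RNA overlapped with B6J. Against B6J this was log2 fold change -0.22 ± 0.09 (SE) for RNA (edgeR quasi-likelihood, Benjamini-Hochberg adjusted p = 0.190) and log2 fold change -0.97 ± 0.44 (SE) for footprints (adjusted p = 0.321), so the label of *Gtpbp2*-/-, a point mutation, was not checked by the level of this gene at the threshold used. In *Gtpbp1*-/- mice *Gtpbp2* RNA rose in 3 of 3 libraries, by log2 fold change 0.34 ± 0.08 (SE) (edgeR quasi-likelihood, Benjamini-Hochberg adjusted p = 0.0154), and between the mutants it was log2 fold change 0.55 ± 0.08 (SE) (adjusted p = 0.0360, 3 of 3 libraries higher).

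The tissue label was checked on marker genes. The 10 granule cell markers summed to 2993, 3149.9 and 3094 in B6J, 2103, 2129 and 2488 in *Gtpbp1*-/- and 2284, 2429 and 2129 in *Gtpbp2*-/- libraries in TPM. The 10 Purkinje cell markers summed to 8343, 8795 and 7547 in B6J, 8443, 6985 and 8744 in *Gtpbp1*-/- and 7611, 7755 and 6469 in *Gtpbp2*-/- libraries. The 6 forebrain neuron markers, of which *Neurod6* was the most abundant and none was at 0 in all libraries, summed to 13.2, 11.6 and 13.0 in B6J, 16.0, 15.2 and 18.2 in *Gtpbp1*-/- and 15.3, 16.6 and 16.9 in *Gtpbp2*-/- libraries. Every library thus held far more of the cerebellar than of the forebrain markers.

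Loss of *Gtpbp1* was compared with B6J for RNA over 34 of the 36 genes (*Cacng1* and *Cacng6* had too few counts). By edgeR quasi-likelihood, Benjamini-Hochberg adjusted p at or under 0.05, 1 rose and 11 fell, beside 13.8% of all 24577 genes tested, of which 1449 rose and 1949 fell. A log2 fold change above 0 was seen for 6 of 34, and the median was -0.29, where that over all genes tested was 0.03. The *Gtpbp1*-/- and B6J libraries did not overlap for 17 of 34 genes (32.0% over all genes tested). With 1 library left out the median ran from -0.33 (without *Gtpbp1*-/- library 1) to -0.23 (without *Gtpbp1*-/- library 2), and with sex as a covariate it was -0.31. Scaling moved the split: with upper-quartile scaling it was 2 up and 8 down and with an offset for effective length 2 up and 7 down, each adding *Grin2b* to the genes that rose. The number called was 7 without B6J library 2, 7 without *Gtpbp1*-/- library 2 and 8 without B6J library 1.

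Loss of *Gtpbp2* was compared with the same B6J libraries over 35 genes (all but *Cacng1*). Here 1 rose and 6 fell, beside 8.63% of all 24859 genes tested (898 up and 1248 down). The log2 fold change was above 0 for 7 of 35 and the median was -0.28, against 0.03 over all genes tested. Libraries did not overlap for 12 of 35 genes (28.7% over all genes tested). Leaving out 1 library, the median ran from -0.35 (without *Gtpbp2*-/- library 1) to -0.18 (without *Gtpbp2*-/- library 3), and with sex as a covariate it was -0.22. The split was 1 up and 4 down with upper-quartile scaling, 1 up and 4 down with the offset for effective length and 2 up and 7 down with all 9 RNA libraries in 1 fit, which added *Grin2b*. RNA library 1 of *Gtpbp2*-/- stood near B6J for several genes: without it 12 genes were called, and without B6J library 1, B6J library 2 or *Gtpbp2*-/- library 3 in turn 4, 4 and 4. Shares called over all genes are not given for these fits or for the other alternatives in this report. A move of such counts is thus not shown to be particular to these genes. Both comparisons used the same B6J libraries, so their likeness was not measured.

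Between the mutants, 0 of 35 genes rose and 0 fell by edgeR quasi-likelihood, with 0 at an unadjusted p under 0.05 (beside 899 of all 25190 genes) and 0 called by DESeq2, beside 0.0595% of all 25190 genes tested. The median was -0.06, against -0.00 over all genes, and libraries did not overlap for 1 of 35 genes (8.94% over all genes tested). Over the fits with 1 library left out the median ran from -0.09 (without *Gtpbp2*-/- library 3) to 0.03 (without *Gtpbp2*-/- library 1), and with sex as a covariate it was -0.04. Without *Gtpbp2*-/- library 1, 20 of 35 genes lay above 0. The granule cell markers given above were lower in both mutants, with 8 and 6 of 10 past the threshold, and their part in the result was not tested. Fewer cells of a type and less RNA per cell cannot be told apart from RNA of whole tissue.

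**Figure D1:**
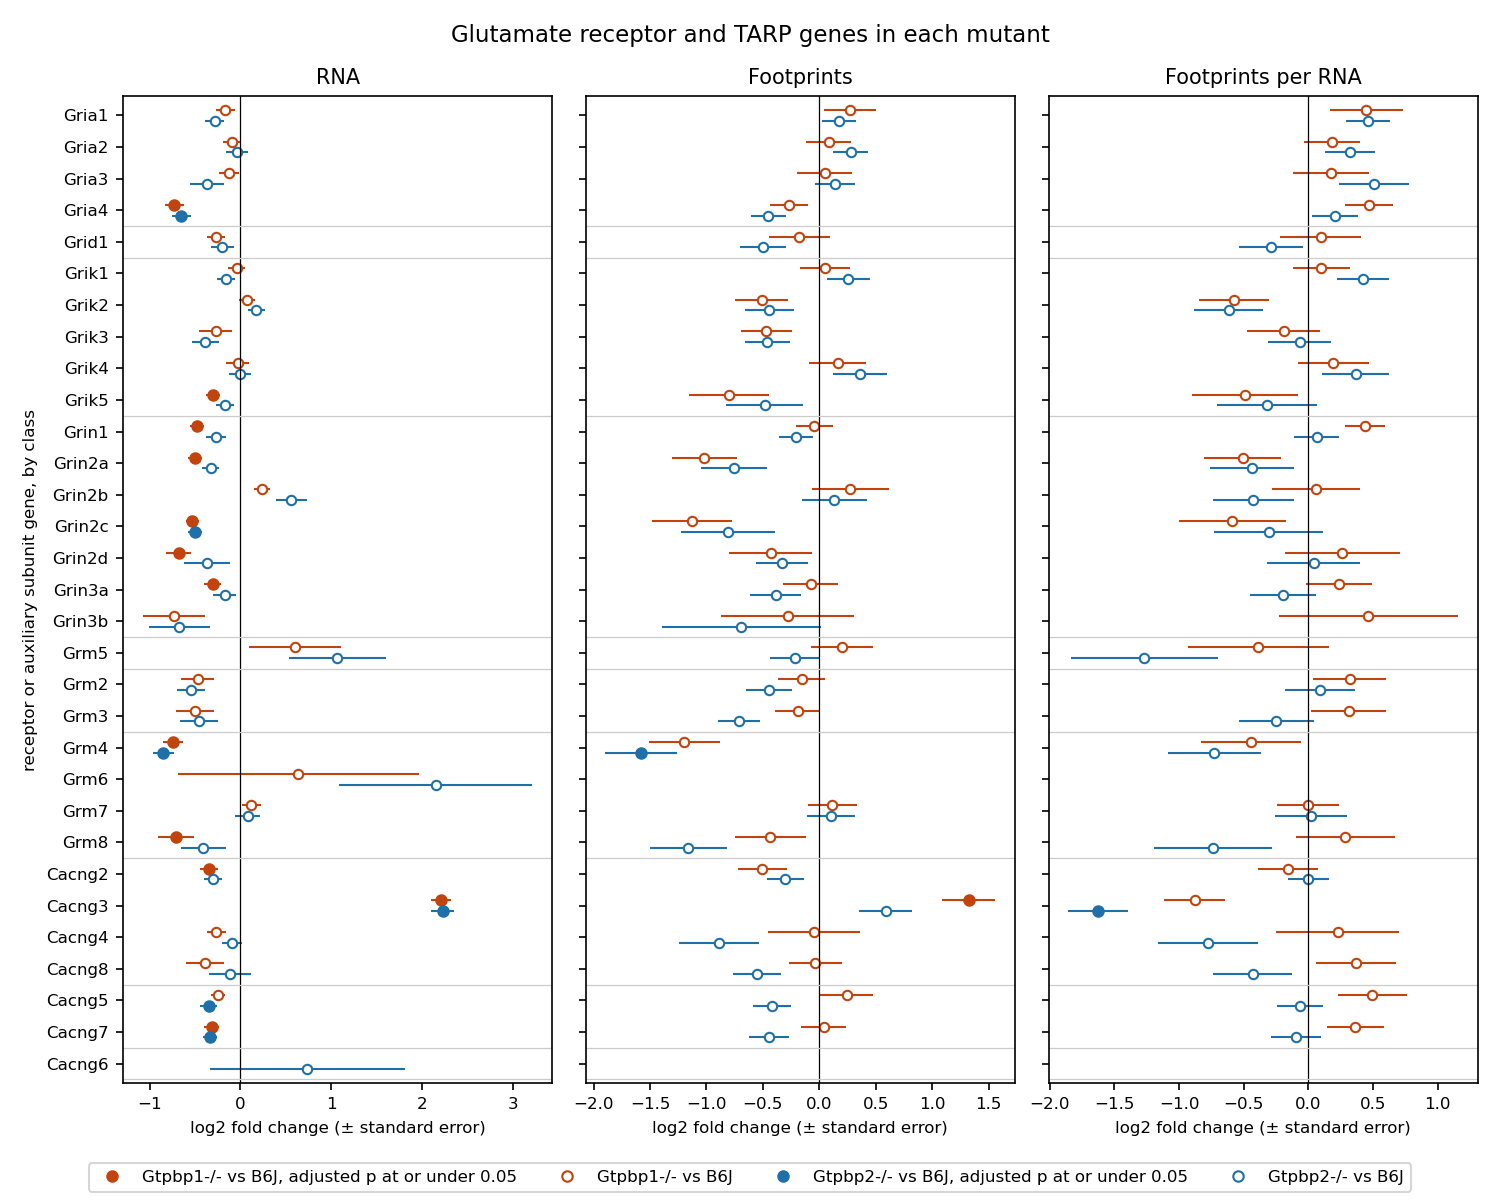
Log2 fold change of receptor and auxiliary subunit genes in *Gtpbp1*-/- and *Gtpbp2*-/- against B6J, by receptor class, for RNA, footprints and footprints per RNA, with points as estimates, bars as SE from 3 libraries per genotype, and filled points at an adjusted p at or under 0.05. *Cacng3* RNA stands at 2.21 and 2.23, apart from all other genes called.

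Footprints measure ribosomes on the coding sequence, and 32 genes had enough of them to be tested in each comparison (not *Grm6*, *Cacng1*, *Cacng6* or *Grin1os*). In *Gtpbp1*-/- mice 1 rose, *Cacng3*, and 0 fell, beside 0.745% of all 13956 genes tested, with 6 at an unadjusted p under 0.05 (beside 1763 of all 13956 genes) and 4 called by DESeq2 (*Cacng3* up, *Grin2a*, *Grin2c* and *Grm4* down). The median was -0.07, against 0.01 over all genes tested, 12 of 32 lay above 0, and libraries did not overlap for 6 of 32 genes (17.7% over all genes tested). With each library left out in turn, the median ran from -0.17 (without *Gtpbp1*-/- library 3) to 0.03 (without *Gtpbp1*-/- library 1), and with sex as a covariate it was -0.15. Without *Gtpbp1*-/- library 1, 17 of 32 lay above 0. None of these genes was called without B6J library 1, 2 or 3 or *Gtpbp1*-/- library 1, and 3 were without *Gtpbp1*-/- library 3.

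In *Gtpbp2*-/- mice 0 rose and 1 fell, *Grm4*, beside 2.94% of all 13797 genes tested, with 14 at an unadjusted p under 0.05 (beside 2355 of all 13797 genes) and 3 called by DESeq2 (*Grm3*, *Grm4* and *Grm8*, all down). The median was -0.40, against 0.01 over all genes tested, 11 of 32 lay above 0, and libraries did not overlap for 12 of 32 genes (22.6% over all genes tested). With 1 library left out the median ran from -0.38 (without B6J library 3) to -0.24 (without B6J library 2), and with sex as a covariate it was -0.13. The number called was 0 without B6J library 2 and 0 without *Gtpbp2*-/- library 1. It was 1, *Grm3* in place of *Grm4*, without B6J library 1, and 4 without B6J library 3 (1 up and 3 down, with *Grin2a*, *Grm4* and *Grm8* among these). Between the mutants 0 rose and 0 fell of 32 by edgeR quasi-likelihood, with 5 at an unadjusted p under 0.05 (beside 1523 of all 14142 genes) and 0 called by DESeq2, beside 0% of all 14142 genes tested. The median was 0.11, against 0.00, and libraries did not overlap for 6 of 32 genes (16.2% over all genes tested). Over the fits with 1 library left out the median ran from 0.05 (without *Gtpbp1*-/- library 2) to 0.23 (without *Gtpbp1*-/- library 1), and with sex as a covariate it was 0.22.

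Footprints per RNA were tested as the interaction of assay and genotype. In *Gtpbp1*-/- mice 0 of 32 genes rose and 0 fell by edgeR quasi-likelihood, beside 0% of all 13086 genes tested, with 3 at an unadjusted p under 0.05 (beside 1170 of all 13086 genes) and 0 called by DESeq2. The median was 0.19, against 0.03 over all genes tested. Leaving out 1 library, the median ran from 0.04 (without B6J footprint library 2) to 0.25 (without *Gtpbp1*-/- footprint library 1), and with sex as a covariate it was 0.13. It was 0.04 without *Gtpbp1*-/- footprint library 2 and 0.08 without B6J footprint library 3. In *Gtpbp2*-/- mice 0 of 31 rose and 1 fell, *Cacng3*, beside 0.00773% of all 12931 genes tested, and *Cacng3* was the single gene called in that comparison. There 6 had an unadjusted p under 0.05 (beside 1554 of all 12931 genes), DESeq2 called 1 and the median was -0.07, against 0.03. There, leaving out 1 library, the median ran from -0.19 (without *Gtpbp2*-/- footprint library 2) to -0.03 (without B6J RNA library 3), and with sex as a covariate it was -0.04. None of these genes was called without B6J RNA library 1 or 2, *Gtpbp2*-/- RNA library 2 or 3, B6J footprint library 1 or 2 or *Gtpbp2*-/- footprint library 1, and 2 were without B6J footprint library 3, *Grik2* beside *Cacng3*. Between the mutants 0 of 32 rose and 0 fell by edgeR quasi-likelihood, beside 0% of all 13292 genes, with 5 at an unadjusted p under 0.05 (beside 1483 of all 13292 genes), 0 called by DESeq2 and a median of 0.22, against 0.01. Leaving out 1 library, this median ran from 0.01 (without *Gtpbp2*-/- RNA library 1) to 0.33 (without *Gtpbp1*-/- footprint library 1), and with sex as a covariate it was 0.21. It was 0.02 without *Gtpbp2*-/- footprint library 3 and 0.05 without *Gtpbp1*-/- footprint library 3.

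For the classes given here, log2 fold changes of footprints per RNA in *Gtpbp1*-/- mice ran from 0.18 to 0.47 for AMPA, -0.57 to 0.19 for kainate and -0.59 to 0.46 for NMDA receptor genes. The ranges were 0.31 to 0.32 for group II and -0.45 to 0.28 for group III metabotropic receptors, and 0.36 to 0.49 for type II TARPs. For *Gtpbp2*-/- mice the ranges were 0.20 to 0.51 for AMPA, -0.61 to 0.42 for kainate and -0.44 to 0.06 for NMDA receptor genes. Metabotropic and type II TARP genes there ran from -0.25 to 0.09 for group II and -0.74 to 0.02 for group III metabotropic receptors, and -0.097 to -0.06 for type II TARPs. Type I TARPs ran from -0.88 (*Cacng3*) to 0.37 (*Cacng8*) in *Gtpbp1*-/- mice and from -1.63 (*Cacng3*) to -0.00102 (*Cacng2*) in *Gtpbp2*-/- mice.

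The 4 AMPA receptor genes encode the pore-forming subunits GluA1 to GluA4. Their TPM summed to 806 ± 61.8 in B6J, 707 ± 49.96 in *Gtpbp1*-/- and 699 ± 64.7 in *Gtpbp2*-/- libraries (SD, n = 3). Footprint CPM per kb of CDS summed to 636 ± 19.2 in B6J, 662 ± 63.8 in *Gtpbp1*-/- and 659 ± 40.9 in *Gtpbp2*-/- libraries (SD, n = 3). *Gria4*, which encodes the GluA4 subunit common in granule cells and Bergmann glia, was the most abundant in B6J, at 308 ± 32.7 TPM in B6J, 209 ± 23.9 in *Gtpbp1*-/- and 221 ± 14.5 in *Gtpbp2*-/- mice (SD, n = 3). Its RNA in scaled CPM was 767, 786 and 635 in B6J, 409, 419.9 and 489.9 in *Gtpbp1*-/- and 458, 503 and 431 in *Gtpbp2*-/- libraries. All 6 mutant libraries lay below all B6J libraries, and the mutants overlapped. *Gria4* had a log2 fold change of -0.73 ± 0.103 (SE), 3 of 3 libraries lower, edgeR quasi-likelihood, Benjamini-Hochberg adjusted p = 4.15e-04 in *Gtpbp1*-/- mice. It was -0.65 ± 0.103 (SE), 3 of 3 libraries lower, adjusted p = 0.00292, in *Gtpbp2*-/- mice. Footprints of *Gria4* were 518, 614 and 553 in B6J, 453, 442 and 503 in *Gtpbp1*-/- and 465, 372 and 404 in *Gtpbp2*-/- libraries, again below B6J in all 6 mutant libraries. Their log2 fold changes were -0.27 ± 0.17 (SE) (edgeR quasi-likelihood, Benjamini-Hochberg adjusted p = 0.556) and -0.45 ± 0.16 (SE) (adjusted p = 0.145). Neither passed the threshold. *Gria1*, *Gria2* and *Gria3* RNA was not called by edgeR in the main fit of either mutant, with log2 fold changes from -0.17 to -0.097 in *Gtpbp1*-/- and -0.37 to -0.04 in *Gtpbp2*-/- mice. In *Gtpbp2*-/- mice DESeq2 called *Gria1* down, and edgeR with library number as a block called *Gria3* down. *Gria4* held 38.1% ± 1.18 in B6J, 29.5% ± 2.28 in *Gtpbp1*-/- and 31.7% ± 2.49 in *Gtpbp2*-/- libraries of AMPA receptor TPM.

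Of the delta receptor genes, *Grid1* was not called in any comparison, with RNA log2 fold changes of -0.27 and -0.20 and footprints per RNA at 0.095 and -0.29.

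The 5 kainate receptor genes summed to 162 ± 4.55 in B6J, 174 ± 2.48 in *Gtpbp1*-/- and 179 ± 14.7 in *Gtpbp2*-/- libraries (SD, n = 3) in TPM. This TPM includes a *Grik2* transcript annotated as a retained intron, whose shares are given below. In footprint CPM per kb of CDS they summed to 96.5 ± 22.4 in B6J, 72.9 ± 8.16 in *Gtpbp1*-/- and 81.5 ± 10.6 in *Gtpbp2*-/- libraries (SD, n = 3), with overlap between all genotypes. *Grik2*, a channel-forming subunit, was the most abundant at 78.5 ± 5.59 TPM in B6J, 92.5 ± 3.77 in *Gtpbp1*-/- and 97.6 ± 5.99 in *Gtpbp2*-/- mice (SD, n = 3). Its RNA in scaled CPM was 171, 196 and 215 in B6J, 199, 213 and 199 in *Gtpbp1*-/- and 237, 212 and 209 in *Gtpbp2*-/- libraries, with overlap between all genotypes. *Grik2* had a log2 fold change of 0.07 ± 0.09 (SE), 3 of 3 libraries higher, edgeR quasi-likelihood, Benjamini-Hochberg adjusted p = 0.702 in *Gtpbp1*-/- mice. It was 0.18 ± 0.097 (SE), 3 of 3 libraries higher, adjusted p = 0.322, in *Gtpbp2*-/- mice. The high-affinity receptor subunit *Grik5* measured 69.5, 77.6 and 75.9 in B6J, 64.1, 60.9 and 55.9 in *Gtpbp1*-/- and 76.5, 61.3 and 60.2 in *Gtpbp2*-/- libraries. The *Gtpbp1*-/- libraries lay below B6J, and *Gtpbp2*-/- library 1 lay within B6J. *Grik5* had a log2 fold change of -0.30 ± 0.08 (SE), 3 of 3 libraries lower, edgeR quasi-likelihood, Benjamini-Hochberg adjusted p = 0.0248 in *Gtpbp1*-/- mice. It was -0.17 ± 0.102 (SE), 2 of 3 libraries lower, adjusted p = 0.364, in *Gtpbp2*-/- mice. Between the mutants it was log2 -0.13 ± 0.102 (SE), 3 of 3 libraries lower, edgeR quasi-likelihood, Benjamini-Hochberg adjusted p = 0.9997. The adjusted p for *Grik5* was 0.0939 without B6J library 2, 0.0868 without *Gtpbp1*-/- library 2 and 0.0908 without *Gtpbp1*-/- library 3 (edgeR quasi-likelihood, Benjamini-Hochberg), and over the 6 leave-one-out fits it ran from 0.0304 to 0.0939. *Grik5* RNA passed the threshold in 8 of 15 alternatives in *Gtpbp1*-/- mice, and did not with upper-quartile scaling, coding transcripts alone, all 9 libraries in 1 fit or library number as a block either. Footprints of *Grik2* were 122, 167 and 82.2 in B6J, 89.2, 78.7 and 91.8 in *Gtpbp1*-/- and 89.8, 101 and 84.2 in *Gtpbp2*-/- libraries, and those of *Grik5* were 62.7, 81.3 and 35.6 in B6J, 19.9, 32.4 and 50.4 in *Gtpbp1*-/- and 38.6, 62.2 and 29.7 in *Gtpbp2*-/- libraries, with overlap between all genotypes. Neither gene's footprints were called, *Grik2* at -0.51 and -0.44 and *Grik5* at -0.80 and -0.49. RNA of *Grik1*, *Grik3* and *Grik4* was not called in either mutant, at -0.27 to -0.03 in *Gtpbp1*-/- and -0.39 to -0.00 in *Gtpbp2*-/- mice.

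NMDA receptor genes summed to 235 ± 9.45 in B6J, 192 ± 5.70 in *Gtpbp1*-/- and 212 ± 32.1 in *Gtpbp2*-/- libraries (SD, n = 3) in TPM. In footprint CPM per kb of CDS they summed to 383 ± 34.3 in B6J, 337 ± 36.3 in *Gtpbp1*-/- and 315 ± 41.1 in *Gtpbp2*-/- libraries (SD, n = 3). *Grin1*, the obligatory subunit, was the most abundant at 120.4 ± 6.56 TPM in B6J, 99.0 ± 4.98 in *Gtpbp1*-/- and 115 ± 21.5 in *Gtpbp2*-/- mice (SD, n = 3). The opposite strand carries *Grin1os*, which overlaps it over 7706 bases, and without strand their RNA reads cannot be told apart there. *Grin1* RNA in scaled CPM was 294, 296 and 281 in B6J, 224, 196 and 207 in *Gtpbp1*-/- and 287, 222 and 215 in *Gtpbp2*-/- libraries. The *Gtpbp1*-/- libraries all lay below B6J, and *Gtpbp2*-/- library 1 lay within B6J. *Grin1* had a log2 fold change of -0.47 ± 0.08 (SE), 3 of 3 libraries lower, edgeR quasi-likelihood, Benjamini-Hochberg adjusted p = 0.00126 in *Gtpbp1*-/- mice. It was -0.27 ± 0.11 (SE), 3 of 3 libraries lower, adjusted p = 0.166, in *Gtpbp2*-/- mice. Footprints of *Grin1* were 869.8, 862 and 872 in B6J, 783, 899.8 and 840.5 in *Gtpbp1*-/- and 723, 842 and 707 in *Gtpbp2*-/- libraries, with log2 fold changes of -0.04 and -0.21, neither called. Between the mutants the RNA difference was log2 -0.21 ± 0.11 (SE), 3 of 3 libraries lower, edgeR quasi-likelihood, Benjamini-Hochberg adjusted p = 0.9997.

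*Grin2a* and *Grin2c* encode the GluN2A and GluN2C subunits that mature granule cells take up. *Grin2a* RNA was 100.1, 102 and 98.0 in B6J, 67.0, 67.8 and 77.3 in *Gtpbp1*-/- and 88.6, 80.8 and 69.5 in *Gtpbp2*-/- libraries in scaled CPM. *Grin2c* RNA was 245, 238 and 233 in B6J, 166, 166 and 164 in *Gtpbp1*-/- and 178, 172 and 155 in *Gtpbp2*-/- libraries. For both genes all 6 mutant libraries lay below B6J. *Grin2c* had a log2 fold change of -0.53 ± 0.07 (SE), 3 of 3 libraries lower, edgeR quasi-likelihood, Benjamini-Hochberg adjusted p = 2.33e-04 in *Gtpbp1*-/- mice. It was -0.50 ± 0.08 (SE), 3 of 3 libraries lower, adjusted p = 0.00288, in *Gtpbp2*-/- mice. For *Grin2a* it was -0.50 ± 0.08 (SE), 3 of 3 libraries lower, edgeR quasi-likelihood, Benjamini-Hochberg adjusted p = 7.46e-04 in *Gtpbp1*-/- mice. It was -0.33 ± 0.09 (SE), 3 of 3 libraries lower, adjusted p = 0.0506, in *Gtpbp2*-/- mice. Between the mutants *Grin2a* differed by log2 -0.17 ± 0.099 (SE), 3 of 3 libraries lower, edgeR quasi-likelihood, Benjamini-Hochberg adjusted p = 0.9997. *Grin1*, *Grin2a*, *Grin2d* and *Grin3a* were among the 12 genes called in *Gtpbp2*-/- mice without *Gtpbp2*-/- library 1. Footprints of *Grin2c* were 226, 317 and 143 in B6J, 72.4, 78.3 and 163 in *Gtpbp1*-/- and 138, 184 and 74.3 in *Gtpbp2*-/- libraries. Those of *Grin2a* were 33.1, 45.2 and 21.6 in B6J, 12.8, 17.2 and 19.0 in *Gtpbp1*-/- and 21.7, 25.03 and 13.5 in *Gtpbp2*-/- libraries. *Grin2c* libraries overlapped with B6J in both mutants, and *Grin2a* libraries lay below B6J in *Gtpbp1*-/- mice alone. The footprint log2 fold changes were -1.13 and -0.81 for *Grin2c* and -1.02 and -0.75 for *Grin2a*, none called by edgeR.

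*Grin2d* and *Grin3a* encode subunits of less abundant NMDA receptors. *Grin2d* RNA was 18.7, 15.9 and 18.5 in B6J, 12.2, 11.6 and 9.30 in *Gtpbp1*-/- and 20.4, 10.1 and 10.6 in *Gtpbp2*-/- libraries in scaled CPM. *Grin3a* RNA was 52.9, 57.1 and 52.5 in B6J, 49.4, 42.5 and 39.5 in *Gtpbp1*-/- and 59.1, 41.0 and 43.9 in *Gtpbp2*-/- libraries. The *Gtpbp1*-/- libraries of both lay below B6J, while *Gtpbp2*-/- library 1 was the highest of all 9. *Grin2d* had a log2 fold change of -0.68 ± 0.14 (SE), 3 of 3 libraries lower, edgeR quasi-likelihood, Benjamini-Hochberg adjusted p = 0.00499 in *Gtpbp1*-/- mice. It was -0.37 ± 0.26 (SE), 2 of 3 libraries lower, adjusted p = 0.458, in *Gtpbp2*-/- mice. *Grin3a* had a log2 fold change of -0.31 ± 0.09 (SE), 3 of 3 libraries lower, edgeR quasi-likelihood, Benjamini-Hochberg adjusted p = 0.0473 in *Gtpbp1*-/- mice, and its -0.17 ± 0.13 (SE) in *Gtpbp2*-/- mice was not called (adjusted p = 0.474). Between the mutants the values were log2 -0.31 ± 0.27 (SE), 3 of 3 libraries lower, edgeR quasi-likelihood, Benjamini-Hochberg adjusted p = 0.9997 for *Grin2d*. For *Grin3a* they were log2 -0.13 ± 0.14 (SE), 2 of 3 libraries lower, edgeR quasi-likelihood, Benjamini-Hochberg adjusted p = 0.9997. The adjusted p for *Grin3a* was 0.1002 without B6J library 1, 0.154 without B6J library 2, 0.177 without *Gtpbp1*-/- library 2 and 0.162 without *Gtpbp1*-/- library 3 (edgeR quasi-likelihood, Benjamini-Hochberg), and over the 6 leave-one-out fits it ran from 0.0169 to 0.177. *Grin3a* RNA passed the threshold in 6 of 15 alternatives in *Gtpbp1*-/- mice, and did not with upper-quartile scaling, the offset for effective length, coding transcripts alone, all 9 libraries in 1 fit or library number as a block either. *Grin2d* RNA passed the threshold in 14 of 15 alternatives in *Gtpbp1*-/- mice, and did not with all 9 libraries in 1 fit. Footprints of *Grin2d* were 35.4, 24.5 and 24.2 in B6J, 9.23, 20.9 and 32.2 in *Gtpbp1*-/- and 22.2, 26.4 and 19.0 in *Gtpbp2*-/- libraries. Those of *Grin3a* were 35.4, 30.2 and 31.0 in B6J, 20.8, 33.3 and 37.2 in *Gtpbp1*-/- and 19.4, 22.3 and 32.0 in *Gtpbp2*-/- libraries. All genotypes overlapped in both, and neither was called (-0.43 and -0.33 for *Grin2d*, -0.08 and -0.39 for *Grin3a*). *Grin2b*, the juvenile subunit, was not called by edgeR in the main fits, with 0.24 and 0.56, although all 6 mutant libraries lay above B6J. DESeq2 called *Grin2b* up in *Gtpbp2*-/- mice. It held 1.43% ± 0.147 in B6J, 3.16% ± 0.386 in *Gtpbp1*-/- and 2.56% ± 0.411 in *Gtpbp2*-/- libraries of NMDA receptor TPM. Estimated counts of *Grin2b* moved less, at 2048, 2322 and 2163 in B6J, 2343, 2648 and 2237 in *Gtpbp1*-/- and 4137, 2766 and 3242 in *Gtpbp2*-/- libraries. TPM also depends on the effective length of the transcripts that reads are assigned to, and the part of this in the share was not tested. *Grin3b* was not called either (-0.73 and -0.67).

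Group I metabotropic receptors couple to phospholipase C. Of these, *Grm5* RNA varied among B6J libraries (13.0, 19.98 and 39.6) and was not called (0.60 and 1.07). Footprints per RNA of *Grm5* had log2 fold changes of -0.39 ± 0.55 (SE) (edgeR quasi-likelihood, unadjusted p = 0.493, Benjamini-Hochberg adjusted p = 0.884) in *Gtpbp1*-/- mice. In *Gtpbp2*-/- mice the value was -1.27 ± 0.57 (SE) (unadjusted p = 0.0485, adjusted p = 0.413), the lowest after *Cacng3* among these genes, and not called.

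Group II receptors are presynaptic and glial receptors coupled to inhibitory G proteins. *Grm3* stood at 13.5 ± 4.33 TPM in B6J, 10.5 ± 0.558 in *Gtpbp1*-/- and 10.8 ± 1.01 in *Gtpbp2*-/- mice (SD, n = 3). Its RNA in scaled CPM was 28.0, 22.4 and 14.3 in B6J, 14.7, 15.0 and 16.1 in *Gtpbp1*-/- and 14.3, 15.6 and 17.3 in *Gtpbp2*-/- libraries. Footprints of *Grm3* were 62.7, 94.5 and 79.9 in B6J, 64.1, 72.6 and 70.6 in *Gtpbp1*-/- and 48.8, 45.1 and 51.8 in *Gtpbp2*-/- libraries. RNA libraries overlapped, while the *Gtpbp2*-/- footprint libraries lay below those of both other genotypes. Log2 fold changes of RNA were -0.50 ± 0.21 (SE) and -0.46 ± 0.21 (SE), neither called by edgeR in the main fits, while DESeq2 called the fall in *Gtpbp1*-/- mice. For footprints in *Gtpbp2*-/- mice the value was -0.71 ± 0.18 (SE) (edgeR quasi-likelihood, Benjamini-Hochberg adjusted p = 0.0510, 3 of 3 libraries lower). *Grm2*, in Golgi cells, had RNA log2 fold changes of -0.47 and -0.54 and was not called by edgeR quasi-likelihood in the main fits. DESeq2 called it down in both mutants, as did edgeR with no filter on low counts, and with library number as a block it was called in *Gtpbp2*-/- mice.

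Among the group III receptors, which lower transmitter release, *Grm4* of granule cells was the most abundant at 238 ± 24.8 TPM in B6J, 163 ± 25.2 in *Gtpbp1*-/- and 149 ± 21.8 in *Gtpbp2*-/- mice (SD, n = 3). It lies on chromosome 17, 18.6 Mb from *Gtpbp2*. The RNA in scaled CPM was 662, 687 and 575 in B6J, 358, 348 and 445 in *Gtpbp1*-/- and 323, 417 and 326 in *Gtpbp2*-/- libraries. Footprints of *Grm4* were 442, 710.0 and 372 in B6J, 166, 164 and 334 in *Gtpbp1*-/- and 175, 229 and 111 in *Gtpbp2*-/- libraries. In both assays all 6 mutant libraries lay below all B6J libraries, and the mutants overlapped. RNA fell, with a log2 fold change of -0.74 ± 0.11 (SE), 3 of 3 libraries lower, edgeR quasi-likelihood, Benjamini-Hochberg adjusted p = 5.08e-04 in *Gtpbp1*-/- mice. It was -0.85 ± 0.12 (SE), 3 of 3 libraries lower, adjusted p = 0.00122, in *Gtpbp2*-/- mice. For footprints it was -1.20 ± 0.31 (SE), 3 of 3 libraries lower, edgeR quasi-likelihood, Benjamini-Hochberg adjusted p = 0.116 in *Gtpbp1*-/- mice. It was -1.58 ± 0.31 (SE), 3 of 3 libraries lower, adjusted p = 0.0382, in *Gtpbp2*-/- mice. Between the mutants the footprint difference was log2 0.37 ± 0.32 (SE), 1 of 3 libraries higher, edgeR quasi-likelihood, Benjamini-Hochberg adjusted p = 0.717. The adjusted p for footprints of *Grm4* was 0.0799 without B6J library 1, 0.0648 without B6J library 2 and 0.139 without *Gtpbp2*-/- library 1 (edgeR quasi-likelihood, Benjamini-Hochberg), and over the 6 leave-one-out fits it ran from 0.0162 to 0.139. *Grm4* footprints passed the threshold in 7 of 13 alternatives in *Gtpbp2*-/- mice, and did not with no filter on low counts, all 9 libraries in 1 fit or sex as a covariate either.

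*Grm8* RNA was 10.03, 8.29 and 8.44 in B6J, 6.82, 5.45 and 4.08 in *Gtpbp1*-/- and 9.48, 4.39 and 6.31 in *Gtpbp2*-/- libraries in scaled CPM, with *Gtpbp1*-/- libraries below B6J and *Gtpbp2*-/- library 1 within B6J. *Grm8* had a log2 fold change of -0.71 ± 0.20 (SE), 3 of 3 libraries lower, edgeR quasi-likelihood, Benjamini-Hochberg adjusted p = 0.0311 in *Gtpbp1*-/- mice. It was -0.41 ± 0.25 (SE), 2 of 3 libraries lower, adjusted p = 0.376, in *Gtpbp2*-/- mice. Between the mutants it was log2 -0.30 ± 0.28 (SE), 2 of 3 libraries lower, edgeR quasi-likelihood, Benjamini-Hochberg adjusted p = 0.9997. The adjusted p for *Grm8* was 0.115 without B6J library 1, 0.0653 without B6J library 2, 0.109 without *Gtpbp1*-/- library 2 and 0.108 without *Gtpbp1*-/- library 3 (edgeR quasi-likelihood, Benjamini-Hochberg), and over the 6 leave-one-out fits it ran from 0.0194 to 0.115. *Grm8* RNA passed the threshold in 8 of 15 alternatives in *Gtpbp1*-/- mice, and did not with the offset for effective length, all 9 libraries in 1 fit or sex as a covariate either. Footprints of *Grm8* were 20.4, 16.3 and 10.8 in B6J, 8.94, 15.3 and 10.5 in *Gtpbp1*-/- and 8.44, 3.85 and 8.32 in *Gtpbp2*-/- libraries. Those of *Gtpbp2*-/- mice lay below both other genotypes, with a log2 fold change of -1.16 ± 0.34 (SE) (edgeR quasi-likelihood, Benjamini-Hochberg adjusted p = 0.0862, 3 of 3 libraries lower). Group III TPM summed to 282 ± 29.0 in B6J, 215 ± 30.7 in *Gtpbp1*-/- and 194 ± 23.7 in *Gtpbp2*-/- libraries (SD, n = 3). *Grm4* held 84.5% ± 1.61 in B6J, 75.6% ± 0.893 in *Gtpbp1*-/- and 76.9% ± 4.07 in *Gtpbp2*-/- libraries of it. Of the group's footprint CPM per kb of CDS *Grm4* held 86.1% ± 4.79 in B6J, 72.4% ± 11.1 in *Gtpbp1*-/- and 69.7% ± 4.24 in *Gtpbp2*-/- libraries. *Grm7* was not called (0.12 and 0.08 for RNA), nor was *Grm6*, whose footprint counts were 0 in all 9 libraries. *Grm6* RNA was 0.0853, 0.108 and 0 in B6J, 0.131, 0.0194 and 0.157 in *Gtpbp1*-/- and 0.192, 0.383 and 0.299 in *Gtpbp2*-/- libraries in scaled CPM, from estimated counts of 4, 5 and 0 in B6J, 6, 1 and 6 in *Gtpbp1*-/- and 9, 20 and 16 in *Gtpbp2*-/- libraries. All *Gtpbp2*-/- libraries lay above both other genotypes, with log2 fold changes against B6J of 0.64 ± 1.33 (SE) in *Gtpbp1*-/- and 2.15 ± 1.06 (SE) in *Gtpbp2*-/- mice (edgeR quasi-likelihood, Benjamini-Hochberg adjusted p = 0.826 and 0.266). Between the mutants it differed by log2 -1.53 ± 0.72 (SE), 3 of 3 libraries lower, edgeR quasi-likelihood, Benjamini-Hochberg adjusted p = 0.9997.

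**Figure D2:**
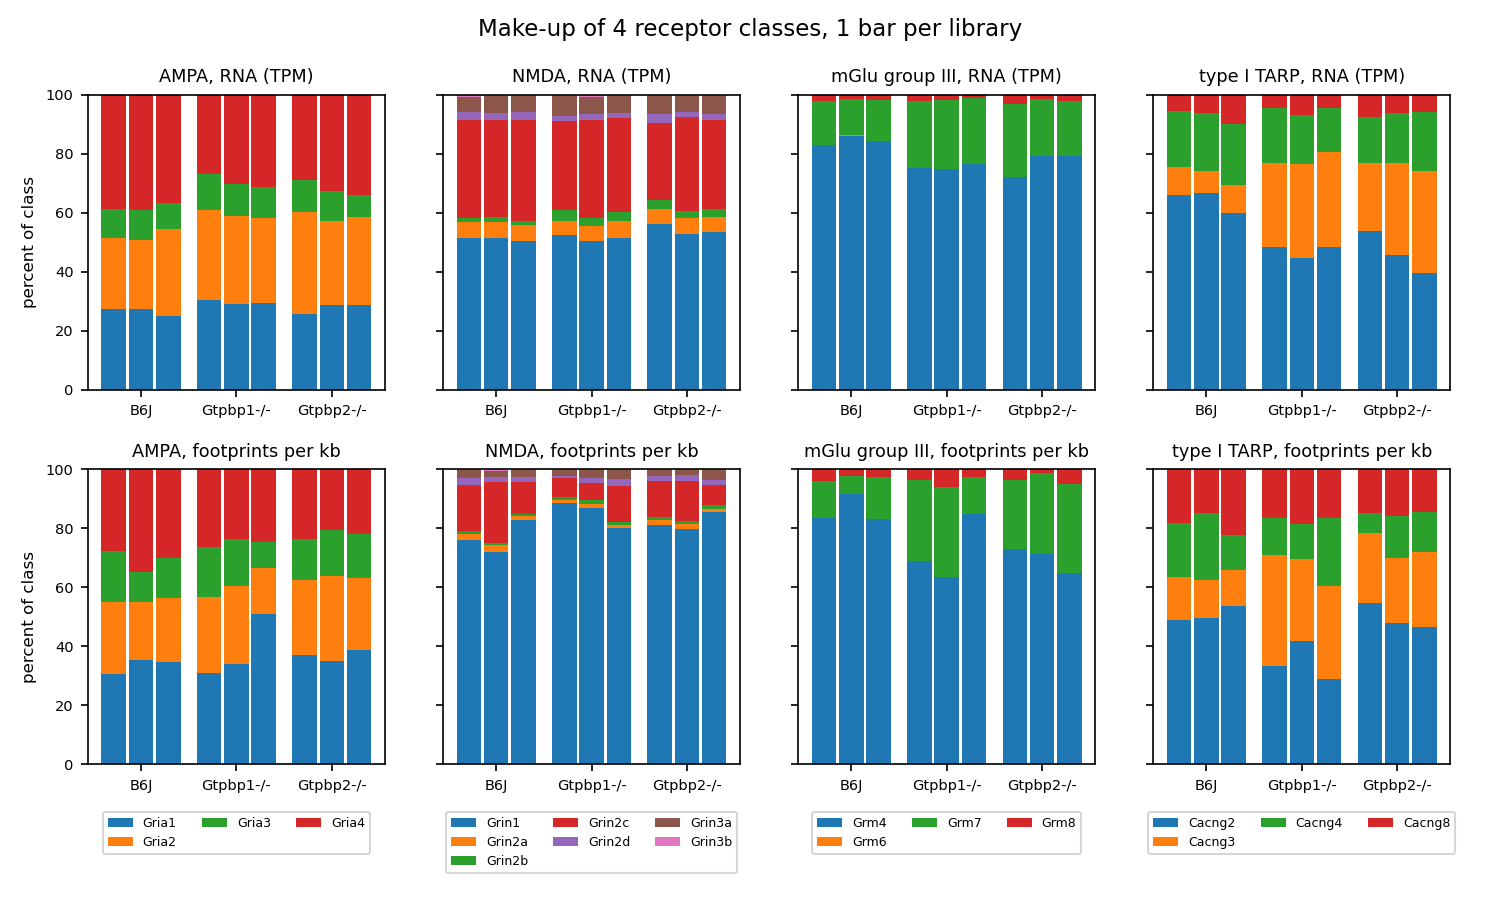
Share of each gene in the TPM (RNA) and in the footprint CPM per kb of CDS of its class, in percent, 1 stacked bar per library, for AMPA, NMDA and group III metabotropic receptors and type I TARPs. The *Cacng3* share of type I TARP TPM is larger in every mutant library than in every B6J library.

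Type I TARPs summed to 91.6 ± 3.87 in B6J, 110.1 ± 11.9 in *Gtpbp1*-/- and 116 ± 6.86 in *Gtpbp2*-/- libraries (SD, n = 3) in TPM. In footprint CPM per kb of CDS their sums were 119 ± 10.4 in B6J, 124 ± 30.6 in *Gtpbp1*-/- and 99.7 ± 6.24 in *Gtpbp2*-/- libraries (SD, n = 3). *Cacng2*, stargazin, the main TARP of granule cells, stood at 59.0 ± 5.36 TPM in B6J, 51.9 ± 7.19 in *Gtpbp1*-/- and 53.4 ± 6.68 in *Gtpbp2*-/- mice (SD, n = 3). The gene lies 1.57 Mb from *Gtpbp1* on chromosome 15, where a stretch from the donor strain around the targeted gene cannot be told apart from the mutation. Its RNA in scaled CPM was 193, 212 and 179 in B6J, 149, 135 and 176 in *Gtpbp1*-/- and 174, 164 and 137 in *Gtpbp2*-/- libraries. All 6 mutant libraries lay below all B6J libraries. *Cacng2* had a log2 fold change of -0.34 ± 0.098 (SE), 3 of 3 libraries lower, edgeR quasi-likelihood, Benjamini-Hochberg adjusted p = 0.0334 in *Gtpbp1*-/- mice. It was -0.30 ± 0.099 (SE), 3 of 3 libraries lower, adjusted p = 0.0911, in *Gtpbp2*-/- mice. Between the mutants *Cacng2* differed by log2 -0.05 ± 0.11 (SE), 2 of 3 libraries lower, edgeR quasi-likelihood, Benjamini-Hochberg adjusted p = 0.9997. The adjusted p for *Cacng2* was 0.0966 without B6J library 1, 0.134 without B6J library 2, 0.108 without *Gtpbp1*-/- library 1 and 0.168 without *Gtpbp1*-/- library 2 (edgeR quasi-likelihood, Benjamini-Hochberg), and over the 6 leave-one-out fits it ran from 0.00725 to 0.168. *Cacng2* RNA passed the threshold in 7 of 15 alternatives in *Gtpbp1*-/- mice, and did not with upper-quartile scaling, the offset for effective length, library number as a block or sex as a covariate either. Footprints of *Cacng2* were 56.8, 60.8 and 57.8 in B6J, 30.4, 50.2 and 42.8 in *Gtpbp1*-/- and 48.3, 46.8 and 48.1 in *Gtpbp2*-/- libraries, also below B6J in all 6 mutant libraries, at -0.51 and -0.30, not called. *Cacng4* and *Cacng8* RNA was not called, with -0.26 and -0.40 in *Gtpbp1*-/- and -0.09 and -0.11 in *Gtpbp2*-/- mice.

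Type II TARPs, which modulate a narrower set of AMPA receptors, are *Cacng5* and *Cacng7*, and their TPM summed to 226 ± 7.52 in B6J, 204 ± 20.5 in *Gtpbp1*-/- and 193 ± 12.03 in *Gtpbp2*-/- libraries (SD, n = 3). *Cacng7* was the more abundant at 191 ± 7.48 TPM in B6J, 171 ± 19.8 in *Gtpbp1*-/- and 163 ± 11.9 in *Gtpbp2*-/- mice (SD, n = 3). *Cacng7* RNA in scaled CPM was 229.5, 236 and 233 in B6J, 195, 165 and 201 in *Gtpbp1*-/- and 194, 187 and 170.1 in *Gtpbp2*-/- libraries. *Cacng5* RNA was 68.8, 78.1 and 72.1 in B6J, 64.0, 59.1 and 61.5 in *Gtpbp1*-/- and 51.3, 62.4 and 58.1 in *Gtpbp2*-/- libraries. For both genes all 6 mutant libraries lay below all B6J libraries. *Cacng7* had a log2 fold change of -0.32 ± 0.08 (SE), 3 of 3 libraries lower, edgeR quasi-likelihood, Benjamini-Hochberg adjusted p = 0.0247 in *Gtpbp1*-/- mice. It was -0.34 ± 0.08 (SE), 3 of 3 libraries lower, adjusted p = 0.0207, in *Gtpbp2*-/- mice. For *Cacng5* it was -0.25 ± 0.08 (SE), 3 of 3 libraries lower, edgeR quasi-likelihood, Benjamini-Hochberg adjusted p = 0.0512 in *Gtpbp1*-/- mice. It was -0.35 ± 0.09 (SE), 3 of 3 libraries lower, adjusted p = 0.0382, in *Gtpbp2*-/- mice. Between the mutants *Cacng5* differed by log2 0.104 ± 0.09 (SE), 3 of 3 libraries higher, edgeR quasi-likelihood, Benjamini-Hochberg adjusted p = 0.9997. In *Gtpbp1*-/- mice the adjusted p for *Cacng7* was 0.0736 without B6J library 1, 0.0725 without B6J library 2 and 0.134 without *Gtpbp1*-/- library 2 (edgeR quasi-likelihood, Benjamini-Hochberg), and over the 6 leave-one-out fits it ran from 0.0184 to 0.134. *Cacng7* RNA passed the threshold in 9 of 15 alternatives in *Gtpbp1*-/- mice, and did not with the offset for effective length, library number as a block or sex as a covariate either. In *Gtpbp2*-/- mice the adjusted p for *Cacng7* was 0.0761 without B6J library 1, 0.0704 without B6J library 2, 0.0541 without *Gtpbp2*-/- library 2 and 0.0952 without *Gtpbp2*-/- library 3 (edgeR quasi-likelihood, Benjamini-Hochberg), and over the 6 leave-one-out fits it ran from 0.0130 to 0.0952. *Cacng7* RNA passed the threshold in 10 of 15 alternatives in *Gtpbp2*-/- mice, and did not with sex as a covariate either. For *Gtpbp2*-/- mice the adjusted p of *Cacng5* was 0.0773 without B6J library 1, 0.137 without B6J library 2, 0.0609 without B6J library 3, 0.0708 without *Gtpbp2*-/- library 1 and 0.106 without *Gtpbp2*-/- library 3 (edgeR quasi-likelihood, Benjamini-Hochberg), and over the 6 leave-one-out fits it ran from 0.0375 to 0.137. *Cacng5* RNA passed the threshold in 7 of 15 alternatives in *Gtpbp2*-/- mice, and did not with upper-quartile scaling, the offset for effective length or sex as a covariate either. Footprints of *Cacng7* were 121, 134 and 133 in B6J, 105, 126 and 168 in *Gtpbp1*-/- and 76.6, 91.3 and 119 in *Gtpbp2*-/- libraries. Those of *Cacng5* were 78.3, 102 and 102 in B6J, 80.9, 101 and 152 in *Gtpbp1*-/- and 74.4, 69.3 and 69.0 in *Gtpbp2*-/- libraries. The *Gtpbp2*-/- libraries lay below B6J for both genes and the *Gtpbp1*-/- libraries overlapped with B6J, at 0.04 and -0.44 for *Cacng7* and 0.24 and -0.42 for *Cacng5*, none called.

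*Cacng1* and *Cacng6*, gamma subunits of muscle calcium channels, were near the limit of detection. *Cacng6*, the more abundant, stood at 0.129 ± 0.150 TPM in B6J, 0.112 ± 0.131 in *Gtpbp1*-/- and 0.141 ± 0.0681 in *Gtpbp2*-/- mice (SD, n = 3). In scaled CPM its RNA was 0.128, 0.0216 and 0.0795 in B6J, 0, 0.0970 and 0.0784 in *Gtpbp1*-/- and 0.0640, 0.172 and 0.150 in *Gtpbp2*-/- libraries, and all groups overlapped. Footprint counts of *Cacng1* were 0 in all libraries, which allows up to 3 counts, or 0.287 to 0.826 CPM, by counting error alone. Those of *Cacng6* were 0, 0 and 0 in B6J, 3, 1 and 0 in *Gtpbp1*-/- and 0, 0 and 0 in *Gtpbp2*-/- libraries. The log2 fold change of *Cacng6* RNA in *Gtpbp2*-/- mice was 0.74, not called. *Grin1os*, which is not a subunit gene, had RNA log2 fold changes of -0.43 in *Gtpbp1*-/- and -0.30 in *Gtpbp2*-/- mice, neither called.

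*Cacng3* (ENSMUSG00000066189.9, GRCm38 chr7:122670492-122769393, plus strand) encodes the type I TARP gamma-3. Its RNA in scaled CPM was 7.12, 7.88 and 7.61 in B6J, 32.6, 34.0 and 38.1 in *Gtpbp1*-/- and 30.6, 36.5 and 38.8 in *Gtpbp2*-/- libraries, from estimated counts of 334, 365 and 383, 1493, 1753 and 1460.0 and 1432, 1908 and 2074. All 6 mutant libraries lay above all B6J libraries, and the mutants overlapped. The log2 fold change was 2.21 ± 0.11 (SE), 3 of 3 libraries higher, edgeR quasi-likelihood, Benjamini-Hochberg adjusted p = 9.25e-08 in *Gtpbp1*-/- mice. It was 2.23 ± 0.12 (SE), 3 of 3 libraries higher, adjusted p = 3.51e-06, in *Gtpbp2*-/- mice. Its p ranked 11 of 24577 and 8 of 24859 genes tested. Between the mutants it was log2 -0.02 ± 0.11 (SE), 2 of 3 libraries lower, edgeR quasi-likelihood, Benjamini-Hochberg adjusted p = 0.9997, with a 95% confidence interval of -0.25 to 0.22. It stood at 7.97 ± 0.815 TPM in B6J, 34.1 ± 5.17 in *Gtpbp1*-/- and 34.4 ± 8.07 in *Gtpbp2*-/- mice (SD, n = 3). Of type I TARP TPM *Cacng3* held 8.73% ± 1.21 in B6J, 30.9% ± 1.90 in *Gtpbp1*-/- and 29.6% ± 5.83 in *Gtpbp2*-/- libraries. *Cacng2* held 64.3% ± 3.69 in B6J, 47.1% ± 2.19 in *Gtpbp1*-/- and 46.4% ± 7.14 in *Gtpbp2*-/- libraries.

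Footprints of *Cacng3* in scaled CPM were 16.6, 15.2 and 12.9 in B6J, 33.6, 32.6 and 45.3 in *Gtpbp1*-/- and 20.6, 20.9 and 25.5 in *Gtpbp2*-/- libraries, from counts of 74, 69 and 81, 233, 284 and 271 and 132, 76 and 264. All libraries of both mutants lay above B6J, and all *Gtpbp1*-/- libraries lay above all *Gtpbp2*-/- libraries. In *Gtpbp1*-/- mice the log2 fold change was 1.32 ± 0.23 (SE), 3 of 3 libraries higher, edgeR quasi-likelihood, Benjamini-Hochberg adjusted p = 0.0209, with a 95% confidence interval of 0.82 to 1.83. In *Gtpbp2*-/- mice it was 0.59 ± 0.24 (SE), 3 of 3 libraries higher, edgeR quasi-likelihood, Benjamini-Hochberg adjusted p = 0.215, with an interval of 0.08 to 1.09. Neither the direct test between the mutants (log2 0.72 ± 0.21 (SE), 3 of 3 libraries higher, edgeR quasi-likelihood, Benjamini-Hochberg adjusted p = 0.294, interval 0.27 to 1.18) nor that in *Gtpbp2*-/- mice passed the threshold. In *Gtpbp1*-/- mice the adjusted p for footprints of *Cacng3* was 0.104 without B6J library 1, 0.0820 without B6J library 2, 0.0529 without B6J library 3 and 0.0528 without *Gtpbp1*-/- library 1 (edgeR quasi-likelihood, Benjamini-Hochberg), and over the 6 leave-one-out fits it ran from 0.0299 to 0.104. *Cacng3* footprints passed the threshold in 7 of 13 alternatives in *Gtpbp1*-/- mice, and did not with library number as a block or sex as a covariate either. The gene held 13.2% ± 1.25 in B6J, 32.3% ± 5.03 in *Gtpbp1*-/- and 23.8% ± 1.67 in *Gtpbp2*-/- libraries of type I TARP footprint CPM per kb of CDS.

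Footprints per RNA of *Cacng3*, each footprint library over the mean RNA of its genotype, were 2.196, 2.02 and 1.71 in B6J, 0.961, 0.934 and 1.30 in *Gtpbp1*-/- and 0.584, 0.592 and 0.723 in *Gtpbp2*-/- libraries. All *Gtpbp2*-/- libraries lay below all *Gtpbp1*-/- libraries, and those below all B6J libraries. The log2 fold change was -0.88 ± 0.24 (SE), 3 of 3 libraries lower, edgeR quasi-likelihood, Benjamini-Hochberg adjusted p = 0.451 in *Gtpbp1*-/- mice, with a 95% confidence interval of -1.39 to -0.37 and rank 62 of 13086. In *Gtpbp2*-/- mice it was -1.63 ± 0.23 (SE), 3 of 3 libraries lower, edgeR quasi-likelihood, Benjamini-Hochberg adjusted p = 0.0372, with an interval of -2.11 to -1.14 and rank 1 of 12931. The test between the mutants did not pass the threshold, at log2 0.74 ± 0.23 (SE), 3 of 3 libraries higher, edgeR quasi-likelihood, Benjamini-Hochberg adjusted p = 0.297, interval 0.25 to 1.22. RNA and footprint libraries were separate libraries that the labels do not pair.

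For footprints per RNA in *Gtpbp2*-/- mice the adjusted p of *Cacng3* was 0.205 without B6J RNA library 1, 0.155 without B6J RNA library 2, 0.0720 without *Gtpbp2*-/- RNA library 2, 0.222 without *Gtpbp2*-/- RNA library 3, 0.111 without B6J footprint library 1, 0.0629 without B6J footprint library 2 and 0.134 without *Gtpbp2*-/- footprint library 1 (edgeR quasi-likelihood, Benjamini-Hochberg), and over the 12 leave-one-out fits it ran from 0.00624 to 0.222. *Cacng3* footprints per RNA passed the threshold in 12 of 21 alternatives in *Gtpbp2*-/- mice, and did not with library number as a block or sex as a covariate either. Ranked by footprint CPM over RNA CPM among the 11746 genes with enough counts, *Cacng3* stood at percentile 85.7 in B6J, 54.1 in *Gtpbp1*-/- and 25.9 in *Gtpbp2*-/- mice. This ratio holds coding sequence footprints over reads of whole transcripts. The summed TPM of the forebrain neuron markers was higher in all 6 mutant than in all B6J libraries as given above, with none of them called by edgeR quasi-likelihood. DESeq2 called 0 in *Gtpbp1*-/- and 1 in *Gtpbp2*-/- mice. An unadjusted p under 0.05 was found for 0 of 6 and 2 of 5 of these markers (beside 6464 of all 24577 and 5585 of all 24859 genes). Their footprint CPM summed to 10.8, 12.9 and 11.2 in B6J, 18.0, 20.8 and 17.3 in *Gtpbp1*-/- and 15.0, 14.3 and 13.1 in *Gtpbp2*-/- libraries, and their part in the *Cacng3* result was not tested.

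**Figure D3:**
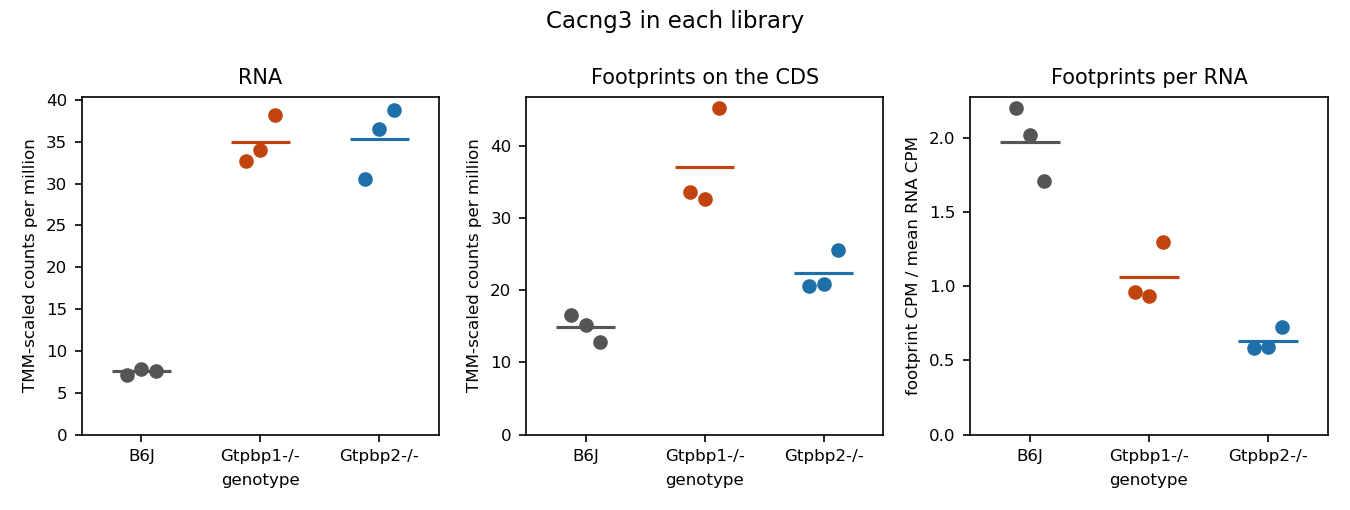
*Cacng3* RNA (scaled CPM), footprints (scaled CPM) and footprints per RNA in each library, with points as libraries (3 per genotype) and lines as means. RNA is above B6J in all 6 mutant libraries, and footprints per RNA run from 1.71 to 2.196 in B6J and from 0.584 to 0.723 in *Gtpbp2*-/- libraries.

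Since the tRNA in short supply on this background reads AGA, AGA codons were counted in the coding sequences. *Cacng3* has 7 AGA among 315 codons, 2.22 per 100 codons, at percentile 84.9 of 21082 genes. Of its 27 arginine codons 25.9% were AGA. *Gria4*, named for having the most AGA codons of the genes described, has 21, or 2.33 per 100 codons. The median of the 33 subunit genes with a complete coding sequence (not *Cacng8*) was 0.759 per 100 codons, against 1.12 over all genes and 1.01 over 11452 genes with at least 10 counts in every library. Positions of footprints on codons were not analysed here. The 27-base windows around each AGA codon of *Cacng3*, from Gencode M21 on GRCm38, are given to show where a ribosome would meet the codon, with each AGA codon in capitals and the codon number counted from the start codon:
Cacng3 codon 6: aggatgtgtgacAGAggtatccagatg
Cacng3 codon 37: tggctatattccAGAggtgtgtgcagg
Cacng3 codon 210: cagttgcgtgccAGAtcccattcagag
Cacng3 codon 230: ccctacaggtatAGAttccgaAGAcgg
Cacng3 codon 233: tatAGAttccgaAGAcggtcaagttct
Cacng3 codon 243: tccactgaacccAGAtctcgagacctt
Cacng3 codon 310: aatccggccaacAGAcgtaccacgcct

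Transcript shares within a gene were described from kallisto's estimates, and an exact permutation test of 3 against 3 libraries cannot go below p = 0.10. The most abundant *Cacng3* transcript in B6J, Cacng3-203, held 51.7% ± 10.9 in B6J, 32.5% ± 4.90 in *Gtpbp1*-/- and 31.9% ± 8.24 in *Gtpbp2*-/- mice (SD, n = 3), without overlap between B6J and either mutant. The full-length Cacng3-201 stood at 3.79 ± 0.438 TPM in B6J, 21.3 ± 1.55 in *Gtpbp1*-/- and 21.3 ± 1.62 in *Gtpbp2*-/- mice. Grin1-205 held 30.9% ± 6.64 in B6J, 12.4% ± 10.1 in *Gtpbp1*-/- and 20.8% ± 12.8 in *Gtpbp2*-/- mice, without overlap in *Gtpbp1*-/- mice alone. Gria4-202 held 50.9% ± 6.40 in B6J, 53.0% ± 1.88 in *Gtpbp1*-/- and 51.4% ± 5.39 in *Gtpbp2*-/- mice. Grm4-201 held 70.9% ± 2.88 in B6J, 73.6% ± 3.03 in *Gtpbp1*-/- and 75.7% ± 3.34 in *Gtpbp2*-/- mice. Both overlapped with B6J in both mutants. Grin2a-206 held 96.9% ± 1.02 in B6J, 98.2% ± 0.385 in *Gtpbp1*-/- and 97.7% ± 2.02 in *Gtpbp2*-/- mice, higher without overlap in *Gtpbp1*-/- mice. Grin2d-201 held 68.6% ± 6.35 in B6J, 78.6% ± 2.57 in *Gtpbp1*-/- and 67.3% ± 6.24 in *Gtpbp2*-/- mice, higher without overlap in *Gtpbp1*-/- mice.

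Of Grik2-203, annotated as a retained intron, the share of *Grik2* TPM was 30.9% ± 5.80 in B6J, 38.7% ± 4.09 in *Gtpbp1*-/- and 40.3% ± 2.45 in *Gtpbp2*-/- mice. Cacng7-201 held 84.0% ± 3.44 in B6J, 86.2% ± 3.72 in *Gtpbp1*-/- and 88.3% ± 1.22 in *Gtpbp2*-/- mice of *Cacng7*. Each was higher without overlap in *Gtpbp2*-/- mice alone. The leading transcripts of *Cacng5*, *Grik5*, *Grin2c*, *Grin3a* and *Grm8* overlapped between B6J and both mutants. *Cacng2* and *Grm3* are listed with 1 transcript each, Cacng2-201 and Grm3-201, so they have no share to compare. Chosen after values were seen, Grin1-208 held 23.8% ± 1.79 in B6J, 3.69% ± 1.21 in *Gtpbp1*-/- and 8.34% ± 2.24 in *Gtpbp2*-/- mice. Likewise chosen, Grin1-202 held 0.870% ± 1.27 in B6J, 13.0% ± 1.15 in *Gtpbp1*-/- and 8.94% ± 3.52 in *Gtpbp2*-/- mice. Grik2-202, also so chosen, held 29.2% ± 4.79 in B6J, 17.1% ± 3.93 in *Gtpbp1*-/- and 14.5% ± 5.16 in *Gtpbp2*-/- mice, each of these without overlap between B6J and either mutant.

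Lists of genes that act with these receptors were counted in the same tests, where 13.8% of all genes tested were called in RNA of *Gtpbp1*-/- and 8.63% in RNA of *Gtpbp2*-/- mice, and 2.94% in footprints of *Gtpbp2*-/- mice. Other AMPA receptor auxiliary genes had 0 up and 8 down of 17 in *Gtpbp1*-/- mice, led by *Olfm3* (-1.09), *Shisa8* (-1.005), *Porcn* (-0.64) and *Nptxr* (-0.57) in log2 fold change. They had 0 up and 7 down of 17 in *Gtpbp2*-/- mice, led by *Olfm3* (-0.97), *Olfm1* (-0.64), *Porcn* (-0.58) and *Cpt1c* (-0.46). Footprints of 5 of 17 fell in *Gtpbp2*-/- mice, led by *Olfm3* (-1.45), *Shisa8* (-1.13), *Shisa9* (-0.97) and *Olfm1* (-0.94). Of the kainate auxiliary genes *Neto1* and *Neto2* neither was called in RNA, and footprints of *Neto2* (-0.86) fell in *Gtpbp2*-/- mice. Of the NMDA modulators *Dao* (-0.45) fell in *Gtpbp1*-/- mice and *Dao* (-0.42) in *Gtpbp2*-/- mice, of 3 tested.

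Postsynaptic scaffold genes had 0 up and 4 down of 23 tested in *Gtpbp1*-/- mice, *Camk2b* (-0.56), *Nsf* (-0.49), *Dlg4* (-0.45) and *Dlgap1* (-0.35), and 1 up and 3 down of 23 in *Gtpbp2*-/- mice, *Grip2* (0.55), *Camk2b* (-0.50), *Dlgap1* (-0.33) and *Dlg4* (-0.32). In footprints *Camk2b* (-0.66) fell in *Gtpbp2*-/- mice. Over all genes tested 13.8% and 8.63% were called in RNA and 2.94% in *Gtpbp2*-/- footprints. Ligands of delta receptors had 0 up and 3 down of 10, *Cbln1* (-0.84), *Cbln3* (-0.59) and *Nrxn2* (-0.46), in *Gtpbp1*-/- mice. They had 0 up and 3 down of 11, *Cbln1* (-0.81), *Cbln3* (-0.54) and *Nrxn2* (-0.40), in *Gtpbp2*-/- mice, where footprints of *Cbln1* (-1.28) and *Cbln3* (-1.17) fell as well. Of the genes of glutamate supply and uptake, *Slc17a7* (-0.68) and *Slc1a3* (-0.45) fell in *Gtpbp1*-/- mice. They fell likewise in *Gtpbp2*-/- mice (-0.68 and -0.44), with footprints of *Slc17a7* (-1.504) down in *Gtpbp2*-/- mice.

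Cell type markers were counted the same way, beside 13.8% of all genes tested in *Gtpbp1*-/- RNA, 8.63% in *Gtpbp2*-/- RNA and 2.94% in *Gtpbp2*-/- footprints, and their part in the results above was not tested. Granule cell markers had 0 up and 8 down of 10 in *Gtpbp1*-/- mice, led by *Gabra6* (-1.08), *Tlx3* (-1.02), *Kcnd2* (-0.75) and *Neurod1* (-0.71). The counts were 0 up and 6 down of 10 in *Gtpbp2*-/- mice, led by *Gabra6* (-1.02), *Kcnd2* (-0.72), *Neurod1* (-0.65) and *Cbln3* (-0.54). Their footprint CPM summed to 4592, 6551 and 4764 in B6J, 3598, 2793 and 3847 in *Gtpbp1*-/- and 2814, 2576 and 2299.8 in *Gtpbp2*-/- libraries, with *Fat2* the most abundant. Of these 7 of 10 fell in *Gtpbp2*-/- mice, led by *Kcnd2* (-1.41), *Gabra6* (-1.30), *Neurod1* (-1.26) and *Cbln3* (-1.17). Granule progenitor markers had 0 up and 0 down of 4 in *Gtpbp1*-/- mice, and 0 up and 1 down of 4 in *Gtpbp2*-/- mice, namely *Gli1* (-0.44). Purkinje cell markers had 0 up and 2 down of 10 in *Gtpbp1*-/- mice, namely *Car8* (-0.38) and *Pcp4* (-0.35), and 0 up and 3 down of 10 in *Gtpbp2*-/- mice, namely *Car8* (-0.43), *Ppp1r17* (-0.40) and *Calb1* (-0.37). Purkinje marker footprint CPM summed to 14318, 9425 and 18709.8 in B6J, 16820.5, 19351 and 11351 in *Gtpbp1*-/- and 21390.3, 21192 and 18554 in *Gtpbp2*-/- libraries. In footprints per RNA 6 of 10 had an unadjusted p under 0.05 in *Gtpbp2*-/- mice (beside 1554 of all 12931 genes), and 0 were called by edgeR quasi-likelihood. Their median log2 fold change was 0.73, against 0.03 over all genes tested.

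For the markers that follow, the shares called over all genes tested in *Gtpbp1*-/- and *Gtpbp2*-/- mice were 13.8% and 8.63% in RNA and 0.745% and 2.94% in footprints. Molecular layer interneuron markers had 0 up and 5 down of 8 in *Gtpbp1*-/- mice, led by *Cdh22* (-0.92), *Tfap2b* (-0.55), *Slc32a1* (-0.47) and *Kit* (-0.45). The counts were 0 up and 3 down of 8 in *Gtpbp2*-/- mice, namely *Cdh22* (-0.73), *Kit* (-0.67) and *Gad1* (-0.33). Golgi cell markers had 1 up and 0 down of 4 in *Gtpbp1*-/- mice, namely *Lgi2* (0.40), and 1 up and 1 down of 4 in *Gtpbp2*-/- mice, namely *Lgi2* (0.41) and *Slc6a5* (-0.38). Of the unipolar brush cell markers, *Eomes* (-1.35) fell in *Gtpbp1*-/- mice, and in *Gtpbp2*-/- mice it was not called (-0.79). Bergmann glia and astrocyte markers had 1 up and 3 down of 8 in *Gtpbp1*-/- mice, namely *Gfap* (1.35), *Hopx* (-0.57), *Slc1a3* (-0.45) and *Aldh1l1* (-0.33). The counts were 1 up and 3 down of 8 in *Gtpbp2*-/- mice, namely *Gfap* (1.22), *Hopx* (-0.69), *Slc1a3* (-0.44) and *Aldh1l1* (-0.30). Oligodendrocyte markers had 0 up and 6 down of 6 in *Gtpbp1*-/- mice, led by *Mobp* (-0.59), *Mog* (-0.50), *Mbp* (-0.49) and *Cldn11* (-0.45). The counts were 0 up and 0 down of 6 in *Gtpbp2*-/- mice. Oligodendrocyte precursor markers had 0 up and 0 down of 3 in *Gtpbp1*-/- mice, and 1 up and 0 down of 3 in *Gtpbp2*-/- mice, namely *Cspg4* (0.71). Microglia markers had 4 up and 0 down of 6 in *Gtpbp1*-/- mice, namely *C1qa* (1.37), *Aif1* (1.29), *Cx3cr1* (1.05) and *Csf1r* (0.77). The counts were 3 up and 0 down of 6 in *Gtpbp2*-/- mice, namely *C1qa* (1.32), *Cx3cr1* (1.005) and *Csf1r* (0.75). Microglial footprints of *C1qa* (1.504) and *C1qa* (1.31) were up in *Gtpbp1*-/- and *Gtpbp2*-/- mice. Endothelial markers had 3 up and 0 down of 4 in *Gtpbp1*-/- mice, namely *Cldn5* (0.59), *Slco1a4* (0.35) and *Flt1* (0.33). The counts were 3 up and 0 down of 4 in *Gtpbp2*-/- mice, namely *Cldn5* (0.74), *Pecam1* (0.55) and *Slco1a4* (0.50). Endothelial footprints of *Cldn5* (1.42) and *Cldn5* (1.41) were up in the same order.

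Markers of tissue outside the cerebellum were present at levels that varied between libraries. Choroid plexus markers, of which 0 of 3 were called in either mutant by edgeR quasi-likelihood (0 of 3 and 0 of 3 at an unadjusted p under 0.05, 0 and 0 by DESeq2), summed to 3295, 2165 and 445 in B6J, 3675, 2738 and 768 in *Gtpbp1*-/- and 109, 2226 and 1451 in *Gtpbp2*-/- libraries in TPM, mostly *Ttr*. In footprint CPM they summed to 5635, 3812 and 49.0 in B6J, 13454, 186 and 12135 in *Gtpbp1*-/- and 476, 9509 and 9517 in *Gtpbp2*-/- libraries, again mostly *Ttr*, with 0 of 3 and 0 of 3 at an unadjusted p under 0.05 and 0 and 0 called by DESeq2. Skeletal muscle markers, with *Mylpf* the most abundant in RNA and *Acta1* in footprints, summed to 14.6, 10.4 and 5.75 in B6J, 11.3, 7.95 and 12.5 in *Gtpbp1*-/- and 7.80, 11.8 and 8.55 in *Gtpbp2*-/- libraries in TPM. In footprint CPM they summed to 9.03, 21.8 and 17.5 in B6J, 45.6, 22.9 and 63.6 in *Gtpbp1*-/- and 7.48, 9.36 and 4.88 in *Gtpbp2*-/- libraries. By edgeR quasi-likelihood 0 of these were called in either assay. An unadjusted p under 0.05 was found in RNA for 1 of 6 in *Gtpbp1*-/- and 1 of 6 in *Gtpbp2*-/- mice, and DESeq2 called 0 and 0. Over all genes tested by edgeR such a p was found for 6464 of 24577 and 5585 of 24859. In footprints an unadjusted p under 0.05 was found for 4 of 8 in *Gtpbp1*-/- mice, 1 of 2 in *Gtpbp2*-/- mice and 7 of 7 between the mutants. Over all genes tested it was found for 1763 of 13956, 2355 of 13797 and 1523 of 14142 in the same order. DESeq2 called 2 up in *Gtpbp1*-/- mice, 1 down in *Gtpbp2*-/- mice and 4 higher in *Gtpbp1*-/- than in *Gtpbp2*-/- mice. Counts of DESeq2 calls over all genes are not given here. Bone markers summed to 282, 678 and 865 in B6J, 1551, 1408 and 2650.4 in *Gtpbp1*-/- and 624, 978 and 478 in *Gtpbp2*-/- libraries in footprint CPM, with *Col1a1* the most abundant. By edgeR quasi-likelihood 0 of them were called in footprints, where 4 of 6 in *Gtpbp1*-/- mice, 0 of 6 in *Gtpbp2*-/- mice and 5 of 6 between the mutants had an unadjusted p under 0.05. The footprint counts over all genes given for the muscle markers apply here too. DESeq2 called 1 up in *Gtpbp1*-/- mice, 0 in *Gtpbp2*-/- mice and 3 higher in *Gtpbp1*-/- than in *Gtpbp2*-/- mice. In RNA 1 bone marker was called in each mutant, *Dmp1*, which fell in *Gtpbp1*-/- (-0.71) and *Gtpbp2*-/- mice (-0.82), beside 13.8% and 8.63% of all genes tested. Bone marker TPM summed to 40.6, 39.7 and 27.2 in B6J, 36.2, 53.9 and 38.9 in *Gtpbp1*-/- and 27.8, 48.7 and 43.4 in *Gtpbp2*-/- libraries, with *Col1a2* the most abundant. Between the mutants 0 genes of the lists other than *Gtpbp2* were called in RNA by edgeR quasi-likelihood, while DESeq2 called, besides the targeted genes, 2 oligodendrocyte markers and 1 postsynaptic scaffold gene, all lower in *Gtpbp1*-/- mice. An unadjusted p under 0.05 was found by edgeR for 5 of 6 oligodendrocyte markers (beside 899 of all 25190 genes). No skeletal muscle or bone marker was at 0 in all libraries in either assay, and their part in the receptor and TARP results was not tested.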

How the data were processed

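The labels describe cerebellum of 3-week-old mice, with 3 RNA-seq and 3 ribosome profiling libraries for each of B6J, *Gtpbp1*-/- and *Gtpbp2*-/-. For RNA, the authors ran kallisto 0.42.4 with bias correction on the Gencode M20 transcriptome, and the deposited values are the estimated count (expected count), the TPM and the effective length of each transcript in each library. For footprints, the authors clipped adaptors and trimmed reads with fastx, removed rRNA with Bowtie2 2.2.3, aligned with HISAT2 2.1.0 to mm10 and counted with featureCounts, so the deposited values are the raw count per gene over coding sequence. Nothing was normalised between libraries in these files. The RNA kit named in the labels (TruSeq v2 mRNA) keeps no strand, and the methods list no strand option for kallisto.

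From there, estimated counts were summed per gene and rounded, TPM was summed per gene, and footprint counts were used as given. Genes were taken by the symbol in each transcript name. Pairs of genotypes were tested with edgeR 4.0.16 in R 4.3.3, by robust quasi-likelihood F tests after TMM scaling on the 6 libraries of the pair, keeping a gene if 3 or more of them held 5 or more counts, with Benjamini-Hochberg adjustment over all genes tested and a threshold of 0.05. A gene is said to rise, fall or be called only past that threshold, and a gene not called is not shown to be unchanged. Footprints per RNA were tested as the assay by genotype interaction over 12 libraries, TMM scaled together, keeping a gene if 3 or more of the 6 libraries of each assay held 10 or more counts, without histone genes (symbols starting with Hist). SE is the absolute log2 fold change over the square root of F, and 95% confidence intervals use the total degrees of freedom. All tests were 2-sided, and the fits were checked on simulated counts with known changes. Alternatives used DESeq2 1.42.0, upper-quartile scaling, an offset for effective length, coding transcripts alone, other filters, all 9 libraries in 1 fit, replicate number as a block, sex as a covariate, and each library left out in turn. Tables were made with Python 3.11.15, numpy 2.4.6 and pandas 2.3.3.

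Levels between libraries are TMM-scaled CPM, and levels between genes are TPM or footprint CPM per kb of CDS. Gene coordinates, coding sequences and transcript types came from Gencode M21 on GRCm38. Genes given library by library were taken from those called in any of the 9 comparisons, *Cacng3*, and the most abundant gene of each class by mean TPM in B6J, and the others are given by range and count. For the other lists (AMPA, kainate and NMDA receptor partners, postsynaptic scaffold, delta receptor ligands, glutamate supply and uptake, markers of 15 cell types or tissues and the targeted genes) up to 4 called genes with the largest absolute log2 fold change are named. Some genes that the rule or the lists take in are not reported here, though counts over the whole set include them. These genes and lists were chosen with earlier results of these data known. Sums over libraries of a marker list include each gene the files hold. The error given is between libraries.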

Additional observations from a re-analysis of the deposited data

How the results depend on the processing

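The number of genes called in RNA of *Gtpbp1*-/- mice stayed within 1.5 times under every alternative that kept all libraries, and was 7 to 16 with 1 library left out. For RNA of *Gtpbp2*-/- mice it was 12 with DESeq2, 12 with the replicate block, 4 with sex as a covariate and 4 to 12 with 1 library left out. For footprints in *Gtpbp1*-/- mice it was 4 with DESeq2, 0 with the block, 0 with sex and 0 to 3 with 1 library left out. For footprints in *Gtpbp2*-/- mice it was 3 with DESeq2, 2 without a filter (*Grm3* and *Grm8* in place of *Grm4*), 0 with all 9 libraries in 1 fit, 3 with the block, 0 with sex and 0 to 4 with 1 library left out. For footprints per RNA in *Gtpbp2*-/- mice it was 0 with the block, 0 with sex and 0 to 2 with 1 library left out. The cause of these moves was not tested. All *Gtpbp2*-/- libraries were female, which leaves fewer B6J libraries of the same sex to compare with.

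RNA of *Gria4*, *Grm4*, *Grin2c* and *Cacng3* passed the threshold in both mutants under all 15 alternatives, as did *Grin1* and *Grin2a* in *Gtpbp1*-/- mice, and *Grin2d* in 14. The fall of *Cacng3* footprints per RNA in *Gtpbp2*-/- mice passed in 12 of 21. Its log2 fold change was -1.79 to -1.56 with 1 library left out, and its adjusted p was 1.11e-07 with DESeq2, 0.0939 with the edgeR quasi-likelihood block (log2 fold change -1.62) and 0.524 with sex (log2 fold change -1.45), Benjamini-Hochberg adjusted. These last 2 did not pass, and the 21 alternatives ran from 1.11e-07 to 0.524 in adjusted p. The *Cacng3* RNA difference between the mutants, near 0, changed sign to 0.11 with sex as a covariate and ran from -0.11 to 0.05 with 1 library left out, with reversed values of 0.03, 0.00493, 0.01 and 0.0525. Across genes, residuals of libraries with the same number correlated at r from -0.266 to 0.112, and genes are not independent replicates, so the numbers were not taken to pair libraries.

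Whole cerebellum gives no cell type, RNA and footprints came in separate batches, and footprints cover coding sequence while RNA covers whole transcripts, so a change in transcript makeup and a change in footprints per RNA cannot be told apart for *Cacng3*. Positions of ribosomes within genes, proteins and other ages were not analysed here.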
